A study of Saccharomyces cerevisiae with 2 samples.

Results

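The genes described here encode the enzymes of lower glycolysis in budding yeast: the aldolase FBA1, the triose phosphate isomerase TPI1, the glyceraldehyde phosphate dehydrogenases TDH1, TDH2 and TDH3, the phosphoglycerate kinase PGK1, the phosphoglycerate mutase GPM1, the enolases ENO1 and ENO2, and the pyruvate kinase CDC19. They are a list of 10 genes taken by name from the array annotation, out of 5654 nuclear gene names on the array, and all 10 were found. The annotation gave them 34 coding probes, of which 32 passed the probe filter, and 37 promoter probes, all of which passed. The study measured histone H3 on genomic tiling arrays in a single group of 2 arrays. The cells were strain MDY510, in which H3 carries a Myc tag; they were arrested with the mating pheromone alpha factor, and no galactose was given. Chromatin was sonicated, and Myc-H3 was precipitated with a monoclonal anti-Myc antibody. On both arrays the precipitate (labelled Cy5) was compared with the sonicated input, or whole-cell extract (labelled Cy3). The sample records give at most 75 ng of ChIP DNA and 3 µg of labelled aRNA (amplified RNA) for each array. The ratios thus include an amplification step, whose effect was not tested. There was no untagged strain, no other growth condition and no dye swap, so a dye effect and the precipitation cannot be told apart. Nothing in the labels says that the 2 arrays came from separate cultures, so the p-values cover only the difference between the arrays, and that difference may be technical.

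In glycolysis the enzymes after the aldolase FBA1 carry triose sugars to pyruvate. The yeast genes for the lower enzymes are among the most strongly transcribed in cells growing on glucose. Several steps are shared by isozymes that differ in expression: TDH3 and then TDH2 supply most of the glyceraldehyde phosphate dehydrogenase, and TDH1 is used mainly when growth slows; ENO2 is the enolase induced by glucose; CDC19 is the main pyruvate kinase, and PYK2 a weakly expressed paralogue. The factors Rap1, Gcr1, Gcr2 and Tye7 act upstream of many of these genes. DNA in eukaryotic nuclei is wound on histones, and strongly transcribed coding regions and active promoters usually carry fewer of them. Expression was not measured in these cells.

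Each value below is a log2 ratio of the Cy5 over the Cy3 processed signal, centred so that the median probe of an array is 0; a gene's value is the mean over its kept probes, given as mean ± SD over the 2 arrays. The arrays agreed closely: the correlation between them was 0.988 over 40660 nuclear probes and 0.995 over the 69 kept probes of the lower glycolysis genes, whose median SD between arrays was 0.04. The direction of the ratio is less secure. Mitochondrial DNA carries no histones, yet the median ratio of its 230 probes lay 4.84 ± 0.10 (SD, n = 2) above the nuclear median, toward the channel labelled as the precipitate. This goes against the channel labels. All signs are therefore given for the channels as labelled, and each would turn if the channels were exchanged. Each rank counted from the highest would then be a rank from the lowest; differences in size between genes would not change.

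In coding regions the lower glycolysis genes lay high in the ratio of the channel labelled IP over the channel labelled WCE. Of the 8 genes with at least 2 kept coding probes, 7 were above the array median, none was below it, and CDC19 did not pass the test (limma, adjusted p under 0.05 over all 4996 genes tested). The background was 34.9% of genes higher and 49.1% lower. The members' median was 0.62, and that of all genes was -0.04. Each channel was also read alone, as log2 signal with the channel's median nuclear probe at 0. In Cy3, 7 of the 8 members lay below the median of all genes, with a members' median of -0.31 against 0.01. In Cy5, 5 of them did, with -0.19 against -0.05. The high ratios thus do not mean a high signal in the channel labelled IP. What sets these levels was not tested. ENO1 and GPM1 kept a single coding probe each and stood outside this fit; with genes of 1 probe allowed in, a setting added after the data were seen, 9 of 10 members were higher against 37.3% of all genes. None of these ratios was called after the normexp background correction, which flattened the Cy5 channel of the second array, or after loess on top of it; the correlation between arrays was 0.260 and 0.963 under these settings.

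**Figure D1:**
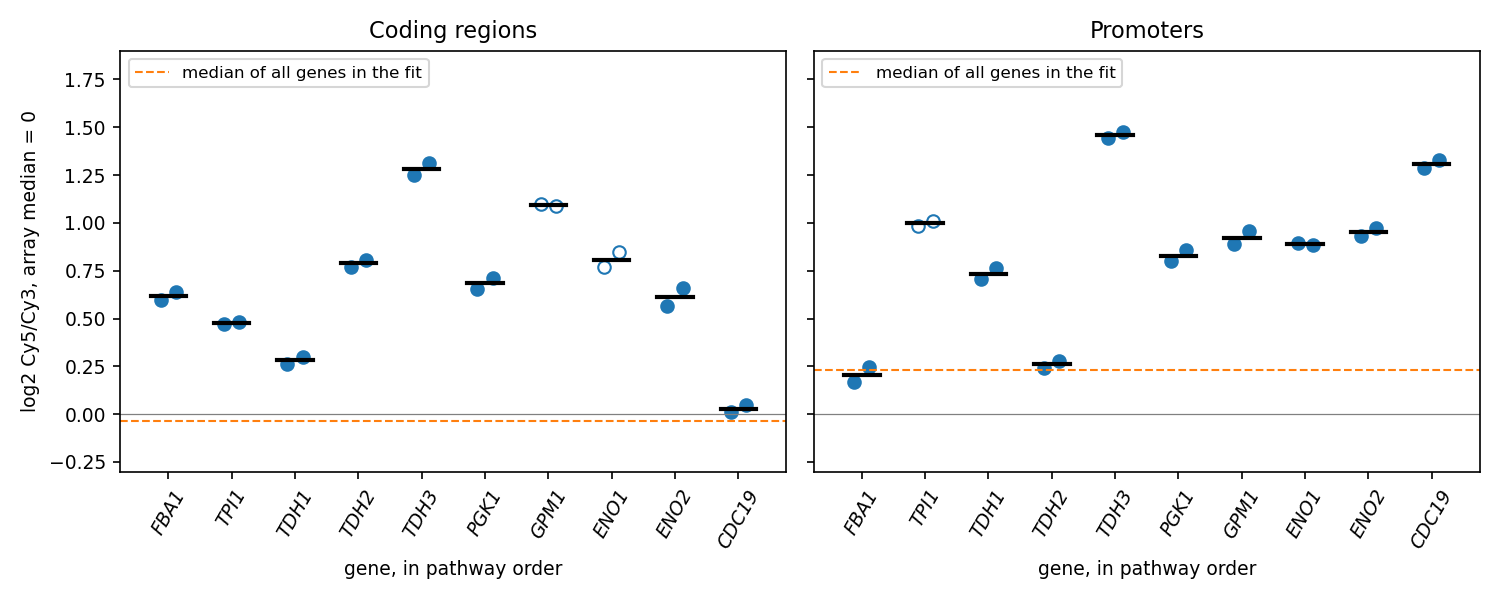
Ratios of the 10 lower glycolysis genes in coding regions (left) and promoters (right), as log2 Cy5/Cy3 with the array median at 0. The points of each gene are replicate 1 (left) and replicate 2 (right), the black bar is their mean, open points rest on 1 probe, and the dashed line is the median of all genes in the fit. In coding regions TDH3 is the highest at 1.28 and CDC19 the lowest at 0.03; in promoters TDH3 is the highest at 1.46, and FBA1 at 0.21 lies near the median of all genes.

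TDH3, the main glyceraldehyde phosphate dehydrogenase, had the highest coding ratio of the list, 1.25 on the first array and 1.31 on the second. That is 1.28 ± 0.04 (SD, n = 2 arrays, 2 probes), or 2.43-fold above the median probe, and it ranked 11 among 4996 genes. Read by channel, the TDH3 coding probes averaged -0.64 in Cy5 and -1.89 in Cy3, so both signals were low. GPM1, the mutase that moves the phosphate of phosphoglycerate, read 1.10 and 1.09 at its single kept probe. ENO1, the less induced enolase, read 0.77 and 0.85, also at 1 probe. TDH2 read 0.77 and 0.81, so ENO1 and TDH2 traded places between the arrays, and their difference of 0.02 ± 0.03 was within the spread.

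PGK1, whose step is the first in the pathway to yield ATP, read 0.66 and 0.71 over 6 probes, the most of any member called higher. FBA1 read 0.60 and 0.64 over 3 probes. ENO2 read 0.57 and 0.66, the widest disagreement between arrays in the list, and could not be ordered against FBA1 (difference 0.00 ± 0.04). TPI1 read 0.47 and 0.48.

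The lowest were TDH1 and CDC19. TDH1 read 0.26 and 0.30, and ranked 478 of 4996. CDC19, whose enzyme makes pyruvate, read 0.01 and 0.05 over 7 probes, 0.03 ± 0.03, with an adjusted p of 0.198 in limma, and ranked 1876. Apart from the ENO1 with TDH2 and FBA1 with ENO2 neighbours, every step in the order TDH3, GPM1, ENO1, TDH2, PGK1, FBA1, ENO2, TPI1, TDH1, CDC19 had the same sign on both arrays and exceeded the between-array SDs of both genes. Probes within a gene differed more, with SDs over probes of 0.17 in PGK1 and FBA1, 0.26 in TPI1 and 0.40 in ENO2. The steps from PGK1 to FBA1 (0.07) and from ENO2 to TPI1 (0.14) were smaller than these. The place of ENO2 also changed with the setting. It exceeded ENO1 by 0.03 without saturated probes, and with length-adjusted ratios it was 0.10, below TPI1 at 0.39.

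Probe by probe, 27 of the 32 kept coding probes of the members were higher, 3 were lower and 2 did not pass, where 31.5% of all 29599 coding probes were higher and 46.1% lower. All 3 lower probes were in CDC19. One of the 2 probes that did not pass was also in CDC19, and the other was the first probe of TDH1.

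Probe length moved with these coding ratios. Across all coding probes the mean ratio was 0.48 for probes of 45 to 49 nt, 0.19 for 50 to 54 nt, 0.02 for 55 to 59 nt and -0.12 for 60 nt. The lower glycolysis genes carried short coding probes: 27 of 32, or 84.4%, were under 60 nt, compared with 35.2% of all coding probes. Within the length classes the members still averaged higher than all probes, at 0.59, 0.42, 0.63 and 0.32 from the shortest class to the longest, over 4, 8, 15 and 5 probes. After the mean of all probes of the same length was subtracted and the overall mean restored (length-adjusted ratios, added after the data were seen), 6 of the 8 members were higher against 33.4% of all genes, and 1 was lower against 49.7%. The members' median was then 0.46.

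The adjustment hardly reordered the top of the list but removed most of the ratio of 2 members. TDH3 went to 1.04, TDH2 to 0.58, PGK1 to 0.57, FBA1 to 0.53 and TPI1 to 0.39. ENO2, whose 3 coding probes are all 46 to 49 nt, went from 0.61 to 0.10. TDH1 went from 0.28 to 0.04 and no longer passed the test (limma, adjusted p = 0.0537), and CDC19 went to -0.08 and was called lower. Restricting the coding regions to 60-nt probes left only CDC19 with enough probes, 2 of them, and gave it the opposite call: it was higher at 0.08 (limma, adjusted p = 0.00021). The part of probe length in the members' ratios beyond this adjustment was not tested, and probe sequences were not used here.

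**Figure D2:**
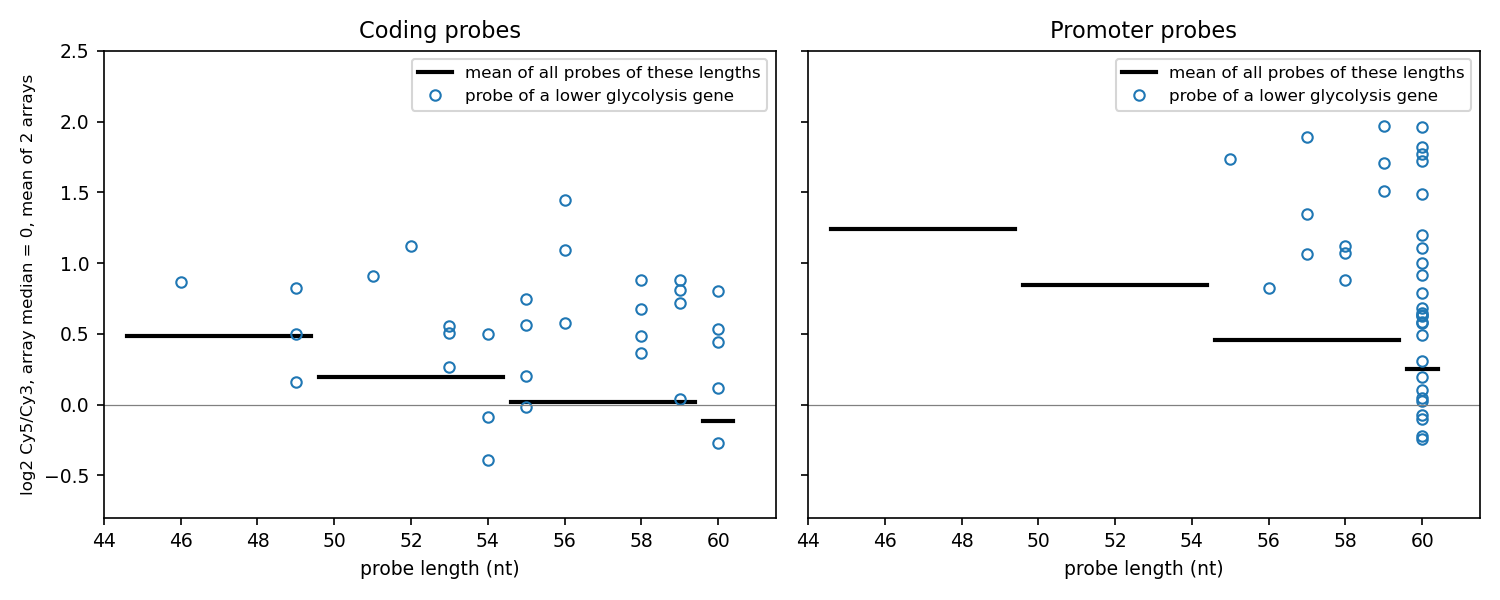
Ratio against probe length in nucleotides for coding probes (left) and promoter probes (right). Open circles are the kept probes of the lower glycolysis genes (mean of 2 arrays), and black bars are the means of all probes of each length class. Mean ratios of all coding probes go from 0.48 at 45 to 49 nt down to -0.12 at 60 nt, and most coding probes of the members are under 60 nt.

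The TDH genes are the largest isozyme group in the list. TDH3 lies on chromosome 7 (coding probes from 883267 to 883635), TDH2 on chromosome 10 (454069 to 454292) and TDH1 on chromosome 10 (338101 to 338756); these are coordinates of the array annotation, and no source used here names their build. From 5′ to 3′ the coding probes of TDH3 read 1.44 and 1.12, those of TDH2 0.67 and 0.91, and those of TDH1 -0.02, 0.36 and 0.50. Every TDH3 probe was above every TDH2 probe, and every TDH2 probe above every TDH1 probe, on both arrays.

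TDH3 exceeded TDH1 by 0.99 on the first array and 1.01 on the second. That is 1.0 ± 0.02 or 2.0-fold (limma, adjusted p = 3.9e-73). The fit subtracts TDH1 from every gene, so its rows are not independent. Its p-value cannot be compared with those of other pairs. By any amount, 8.07% of all genes were called higher than TDH1. TDH2 exceeded TDH1 by 0.51 ± 0.0014. TDH3 exceeded TDH2 by 0.49 ± 0.02; 0.821% of genes were called higher than TDH2, by any amount. With length-adjusted ratios these differences were 1.0, 0.54 and 0.47. The order of the coding ratios, TDH3 over TDH2 over TDH1, was the same with and without the length adjustment, although each gene rests on 2 or 3 probes, all shorter than 60 nt. These coding sequences are close copies of each other, and whether a probe of 1 TDH gene also binds labelled material from another was not tested. After loess the TDH3 over TDH2 difference was -0.01 and was not called.

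**Figure D3:**
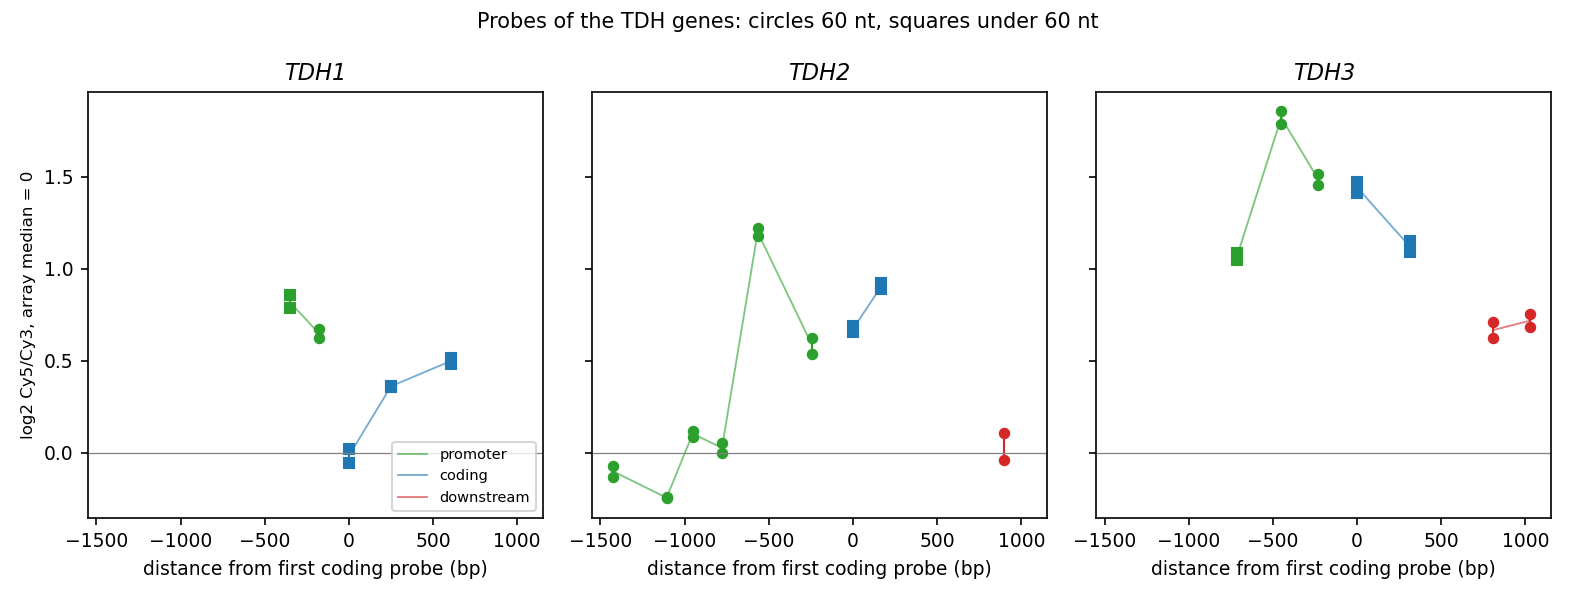
Probe ratios of TDH1, TDH2 and TDH3 against the distance in bp from the first coding probe, negative upstream; each pair of joined symbols is 1 probe on the 2 arrays, circles are 60-nt probes and squares shorter ones. Coding probes of TDH3 (1.44 and 1.12) are above those of TDH2 (0.67 and 0.91), and these above those of TDH1 (-0.02 to 0.50), and TDH3 stays at 0.67 and 0.72 downstream of the gene.

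By the means over all their annotated probes, the promoters of the TDH genes were ordered differently from their coding regions. The TDH3 promoter read 1.44 and 1.47 on the 2 arrays, the TDH1 promoter 0.70 and 0.77, and the TDH2 promoter 0.24 and 0.28. TDH3 exceeded TDH1 by 0.72 ± 0.02, where 10.3% of promoters were called higher than that of TDH1 by any amount, and all 3 of its probes were above both TDH1 probes. TDH2 minus TDH1 was -0.47 ± 0.02, and 86.6% of promoters were lower than that of TDH1. TDH3 exceeded TDH2 by 1.20 ± 0.0034; 40.7% of promoters were higher than that of TDH2.

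The low TDH2 promoter is a mean over an uneven stretch. Its annotation covers the whole interval shared with MET3, an ATP sulfurylase gene that points the other way, and holds 6 probes. Moving away from TDH2 they read 0.58 at 241 bp, 1.20 at 566 bp, 0.03 at 778 bp, 0.10 at 952 bp, -0.24 at 1107 bp and -0.10 at 1426 bp from the first coding probe. The pair of probes nearest TDH2 was high, and the other 4 were at or below 0.10. The TDH1 promoter has only 2 probes, 0.65 at 177.5 bp and 0.82 at 351.5 bp, so the means of these promoters cover unlike distances. With the 3 nearest probes alone, a setting added after the data were seen, the TDH2 promoter read 0.60 and its difference from TDH1 was -0.13; with the median over probes it was 0.07 and did not pass (limma, adjusted p = 0.0607).

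For the enolases the coding regions did not follow the same order. ENO1 (chromosome 7, coding probe from 1001126 to 1001184) kept 1 probe at 0.81, and a second, filtered for a spot flag, read 0.68. ENO2 (chromosome 8, 451506 to 452313) read 0.82, 0.87 and 0.16 from 5′ to 3′. ENO2 minus ENO1 was -0.20 and -0.19 on the arrays, -0.19 ± 0.01 (limma with 1 probe allowed, adjusted p = 8.2e-11); 98% of genes were lower than ENO1. The single ENO1 probe fell inside the range of the ENO2 probes, so the probes of the genes overlapped. The last and lowest ENO2 probe was saturated on at least 1 array and had the largest SD of any member probe, 0.13; without saturated probes ENO2 was 0.84, and its difference from ENO1 turned to 0.03. Without length adjustment, the direction of the difference thus rests on that probe. After length adjustment, with that probe still in, the difference was -0.67. The ENO2 probes then read 0.37, 0.22 and -0.30, all below the ENO1 probe at 0.76.

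The enolase promoters could not be told apart by their means. ENO2 minus ENO1 was 0.04 and 0.09, 0.06 ± 0.04, and did not pass (limma, adjusted p = 0.0626), while 5.91% of promoters were higher than that of ENO1. Its sign turned without saturated probes, where it was called (-0.07, limma, adjusted p = 0.0038), and with the 3 nearest probes, where it was not (-0.05). ENO2 has 2 promoter probes at 1.12 and 0.79, and the interval of ENO1, shared with the proteasome gene PUP2, has 7 probes that climb from 0.58 and 0.05 at its PUP2 end to 0.68, 1.89 and 1.77, then descend to 1.06 and 0.20 next to ENO1. The ENO1 probes at 0.05 and 1.06 were saturated on at least 1 array, so these readings are less certain.

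CDC19 and PYK2 had coding ratios that were close together and promoter ratios that were far apart. In coding regions CDC19 (chromosome 1, 71774 to 73312) minus PYK2 (chromosome 15, 985108 to 986480) was -0.03 and -0.02, -0.03 ± 0.01 over 7 probes each, and did not pass (limma, adjusted p = 0.0754), where 28.3% of genes were higher and 61.3% lower than PYK2. PYK2 itself read 0.05 ± 0.02. The CDC19 probes alternated along the gene, reading -0.27, 0.20, -0.39, 0.04, 0.26, -0.09 and 0.44 from 5′ to 3′, with a range that held every PYK2 probe (-0.27 to 0.33). This difference was called under 3 alternatives, each time with CDC19 lower, at values from -0.07 to -0.06, and turned its sign, uncalled, under 3 others.

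At the promoters CDC19 read 1.29 and 1.33 and PYK2 read -0.21 and -0.15. The difference was 1.48 ± 0.01, or 2.80-fold, where 87.9% of promoters were higher than that of PYK2, and all 9 CDC19 promoter probes were above both PYK2 probes on both arrays. The 8 outer probes lie in the interval shared with CYC3, the cytochrome c heme lyase gene, and the ninth is annotated to CDC19 alone. From the CYC3 side the ratios read 1.71, 1.51, 1.11, 0.91 and 0.88, rose again to 1.96 and 1.72 at 772 and 488 bp from CDC19, and ended at 1.35 and 0.63. The step from 0.63 at the last promoter probe to -0.27 at the first coding probe spans 156 bp, less than the median probe spacing of 256.5 bp.

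**Figure D4:**
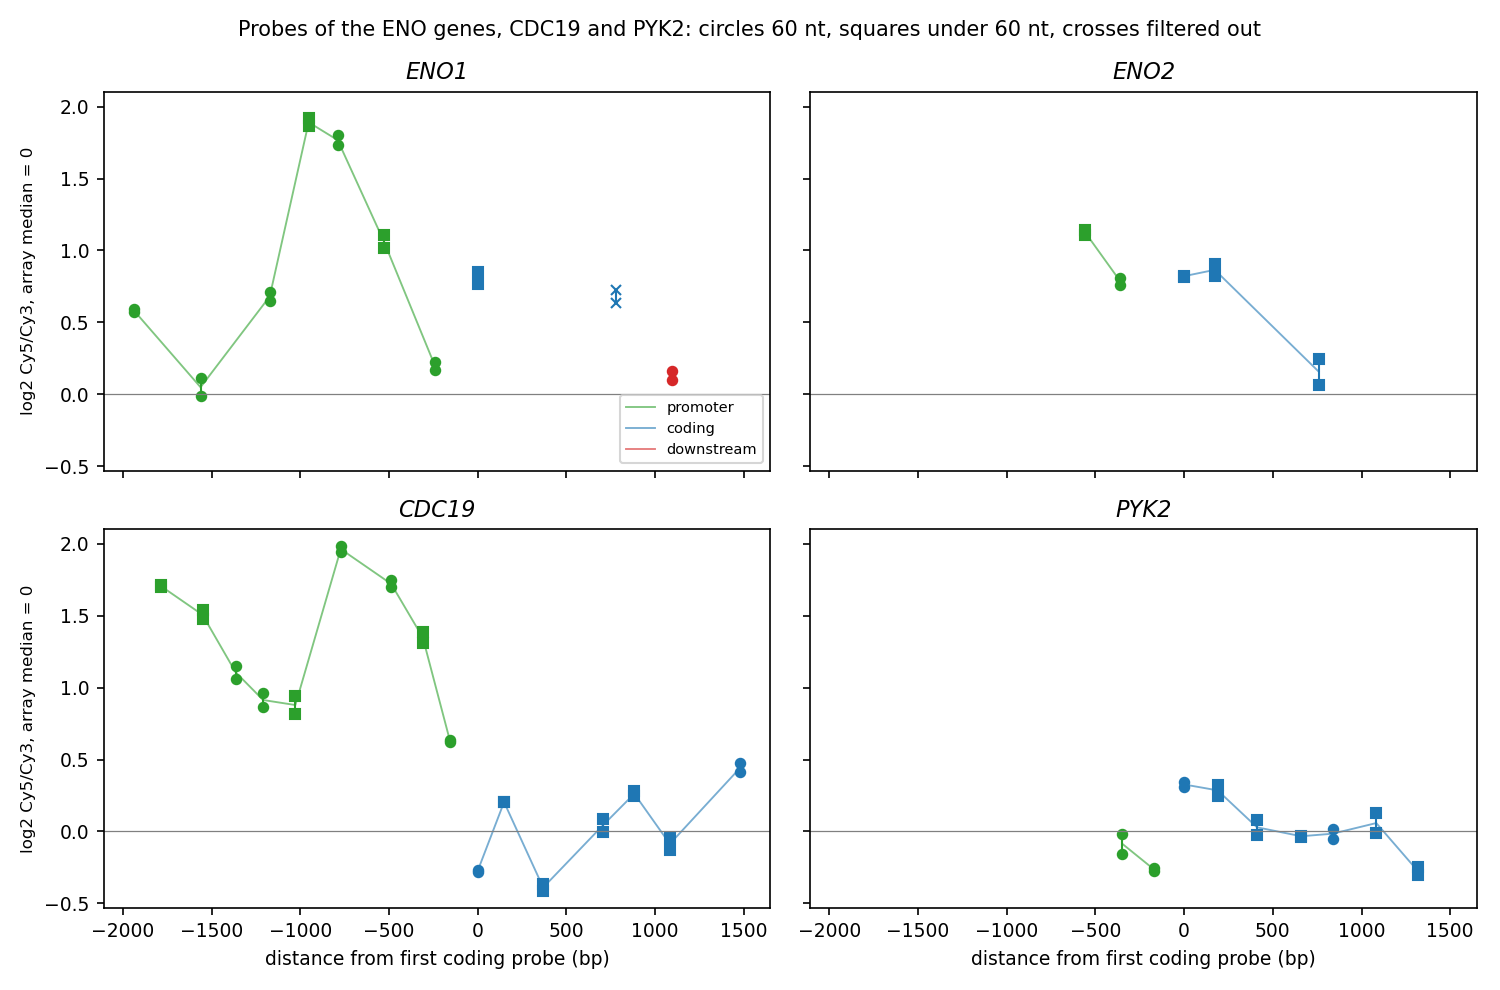
Probe ratios of ENO1, ENO2, CDC19 and PYK2 against the distance in bp from the first coding probe, negative upstream; each pair of joined symbols is 1 probe on the 2 arrays, circles are 60-nt probes, squares shorter ones and crosses a filtered probe. The CDC19 promoter reaches 1.96 and its coding probes lie between -0.39 and 0.44, whereas PYK2 is at or below 0.33 throughout.

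GPM1 was compared with its weakly expressed relatives GPM2 and GPM3. Its single coding probe exceeded the GPM2 mean by 0.94 ± 0.04 and the GPM3 mean by 1.03 with an SD of 2.5e-05, and lay above each probe of both. By any amount, 19.7% of genes were called higher than GPM2 and 27.8% higher than GPM3. After length adjustment the differences were 0.77 and 0.82. At the promoters GPM1 exceeded GPM2 by 0.72 ± 0.0035 (44.9% of promoters were higher than GPM2) and GPM3 by 1.13 ± 0.0035 (88.5%). The GPM1 promoter read 0.49, 1.97 and 0.31 from 5′ to 3′. With 60-nt probes alone, which leaves out the highest probe, the differences were 0.15 and 0.60.

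**Figure D5:**
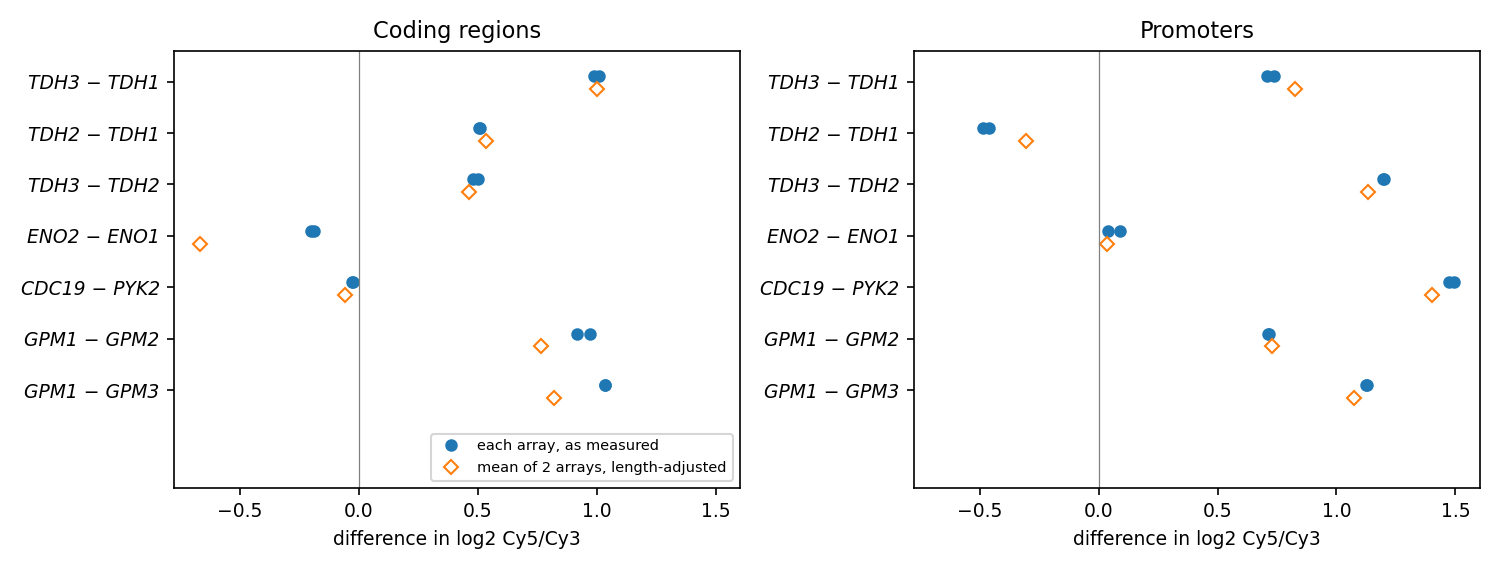
Differences between isozymes in log2 Cy5/Cy3, for coding regions (left) and promoters (right). Filled points are the 2 arrays and open diamonds the mean difference of length-adjusted ratios; in coding regions TDH3 over TDH1 is 1.0 with and without the adjustment, while ENO2 minus ENO1 goes from -0.19 to -0.67.

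All 10 lower glycolysis promoters had ratios above the array median (limma, adjusted p under 0.05). Of all 5175 promoters, 70.8% were higher and 16.3% lower. The members' median ratio was 0.91 and that of all promoters 0.23. In the channel labelled IP alone, 8 of the 10 lay below the median of all promoters, with a members' median level of -0.70 against -0.11. In the channel labelled WCE all 10 did, at -1.52 against -0.35. TDH3 ranked 45 and CDC19 ranked 89 of 5175. They were followed by TPI1 at 1.0 ± 0.02 (1 probe), ENO2 at 0.95 ± 0.03, GPM1 at 0.92 ± 0.05, ENO1 at 0.89 ± 0.01 and PGK1 at 0.83 ± 0.04. GPM1 could not be ordered against ENO2 or ENO1 beyond their spread. ENO2 exceeded ENO1 by 0.06 ± 0.04, more than the SD of either gene, but the difference did not pass the test (limma, adjusted p = 0.0626). TDH1, TDH2 and FBA1 closed the list, FBA1 at 0.21 ± 0.05, rank 2756. With length-adjusted ratios all 10 were again higher, against 71.8% of promoters.

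Of the 37 promoter probes of the members, 31 were higher, 3 lower and 3 did not pass, where 66.1% of all promoter probes were higher and 20% lower. The highest probe of each gene was 1.97 in GPM1, 1.96 in CDC19, 1.89 in ENO1, 1.82 in TDH3, 1.73 in PGK1, 1.20 in TDH2, 1.12 in ENO2, 1.0 in TPI1, 0.82 in TDH1 and 0.63 in FBA1. The GPM1 and CDC19 probes ranked 105 and 106 of 9074 promoter probes. The highest probes of the 10 genes lay between 282.5 and 953 bp upstream of the first coding probe.

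Several means hide large ranges. PGK1 had a probe at 1.73, 295 bp upstream, and another at -0.07, 770.5 bp upstream on the side of ADP1, an ABC transporter gene that shares the interval; with 60-nt probes alone only the second was left, and PGK1 was called lower. FBA1 had 0.63 at 303 bp and -0.22 at 536 bp. Promoters of 5 members are shared with a divergent neighbour (CYC3, ADP1, PUP2, MET3 and YJL052C-A), and all their probes but the CDC19 probe nearest that gene carry the names of both genes.

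The promoter exceeded the coding region in 6 of the 8 members with both values and was below it in 2, where 71.9% of 4576 genes were higher and 17.9% lower. The members' median difference was 0.26, and that of all genes 0.25. CDC19 had the widest gap, 1.28 ± 0.0019, rank 58. TPI1 at 0.52, TDH1 at 0.45, ENO2 at 0.34, TDH3 at 0.18 and PGK1 at 0.15 were also positive. FBA1 at -0.41 and TDH2 at -0.53 were negative. These directions held with length-adjusted ratios, but sizes moved: ENO2 went to 0.82, TDH3 to 0.41, PGK1 to 0.07, FBA1 to -0.27 and TDH2 to -0.26. ENO2 was 0.11 without saturated probes, and TDH2 was -0.19 with the 3 nearest promoter probes.

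Along the coding regions, the first probe minus the last was positive in 59.9% of 4881 genes, by 0.08 ± 0.0041 on average. It was positive in FBA1 (0.32), TPI1 (0.60), TDH3 (0.32), PGK1 (0.35) and ENO2 (0.66), whose last probe was saturated. It was negative in TDH1 (-0.51), TDH2 (-0.23) and CDC19 (-0.72). The first and last probes lie only 169.5 bp apart in TDH2, against 604 bp in TDH1 and 1479 bp in CDC19. With length-adjusted ratios TDH2 turned to 0.04 and TDH1 went to -0.25, and the other 6 kept their sign. In PGK1, with 6 probes, the ratios were 0.88, 0.88, 0.56, 0.51, 0.74 and 0.53, so the fall was not steady. In TPI1 they were 0.72, 0.58, 0.50 and 0.12.

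Downstream of the genes most ratios were small, from -0.16 to 0.13. ENO1 read 0.13, TDH2 0.04, and GPM1 0.02 and -0.16. The mean of all 1862 downstream probes was 0.02 ± 0.03, where the SD is between the 2 arrays and not between probes. TDH3 was the exception among those with downstream probes, at 0.67 and 0.72, the second lying 1030 bp from its first coding probe. The next gene on that side, the amino acid permease gene HIP1, read -0.35 ± 0.02.

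The genes next to the members were mostly lower than them. Of the 20 genes that flank the members on the array, 19 lay below their member on both arrays, and their median was 0.06. The members are high themselves: on average 92.4% of all genes lay below a member on both arrays. By the test 10 of the 20 were higher, against 37.3% of all genes, 6 were lower, against 45.8%, and 4 did not pass, with 1 probe allowed. The single exception was CYC3, at 0.66 ± 0.04 next to CDC19 at 0.03. PGK1 stood 1.0 and 1.05 above ADP1 on the arrays, and TDH3 stood 1.62 and 1.65 above HIP1.

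The rest of the pathway was less uniform in coding regions. Of 23 other genes, 13 were higher, 8 lower and 2 did not pass, with a median of 0.06, where 34.9% of all genes were higher and 49.1% lower. Among the 14 genes of upper glycolysis and fermentation, 8 were higher and 4 lower. PDC1, the main pyruvate decarboxylase and the next enzyme after pyruvate in fermentation, was the highest at 1.01 ± 0.01, followed by the regulator gene TYE7 at 0.49 ± 0.04. The lowest were the alcohol dehydrogenase gene ADH4 at -0.17 ± 0.02 and the regulator gene GCR2 at -0.16 ± 0.02. With length-adjusted ratios 10 were higher and 11 lower, against 33.4% and 49.7% of all genes.

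At promoters 18 of 22 of these genes were higher and 4 lower, against 70.8% and 16.3% of all promoters, with all 13 measured upper glycolysis and fermentation genes among the higher. With length-adjusted ratios 12 of these 13 were higher, as the alcohol dehydrogenase gene ADH2 did not pass (limma, adjusted p = 0.133), and with centring on the mode 14 of the 22 were higher. TYE7 had the highest promoter at 1.74 ± 0.03 and PDC1 read 1.50 ± 0.05. The minor isozymes PYK2 (-0.18 ± 0.04) and GPM3 (-0.20 ± 0.05) were lower, and GPM2 was higher at 0.21 ± 0.05.

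Genes whose coding and promoter ratios on the 2 arrays came nearest to those of a member were ranked by Euclidean distance over these 4 values, among 4568 other genes. Nearest to TDH3 were BUR6 at 0.38, PDC1 at 0.39 and SRD1 at 0.44. TDH1 and ENO2 had much closer neighbours: YPL144W at 0.03, ERG28 at 0.05 and YMR244C-A at 0.06 for TDH1, and PCT1 at 0.04, RPL34A at 0.07 and THO1 at 0.13 for ENO2. The nearest gene to TDH3 was thus farther away than the third nearest gene to TDH1 or to ENO2.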

How the data were processed

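Per the file headers, the spot intensity values were made by Agilent Feature Extraction 9.1.3.1 (array design 014810), and the processed signals were already background-subtracted and dye-normalized. No source used here names the build of the probe coordinates. The table of log2 ratios that the authors deposited is equal to the log2 of processed Cy5 over Cy3 to within 5.00e-06 at any probe, with medians of 0.03 and -0.0017, which settles its scale and direction and shows no centring.

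Here, each array's processed-signal log2 ratios were shifted to a median of 0, without loess or quantile normalization. Probes with a non-uniformity or population outlier flag in either channel of either array, or a Cy3 signal not well above background on both, were left out (40890 of 41775 kept); saturated spots, 4.74% to 8.49% a channel, stayed. A gene's value is the mean over at least 2 coding or at least 1 promoter probe, on nuclear chromosomes. Coding probes are those annotated inside a gene, and promoter probes those in a promoter or a divergent promoter, which counts for both its genes. Ratios were tested against 0 with limma 3.58.1 (R 4.3.3; lmFit, eBayes), with Benjamini-Hochberg adjustment over all genes, promoters or probes and a threshold of 0.05; isozymes were compared by subtracting the reference isozyme on each array and fitting all genes again. With 2 arrays an exact sign-flip test of a single value cannot go below p = 0.5, so calls rest on the spread pooled across features. In the isozyme fits every row holds the same subtracted reference. Those rows are therefore not independent, and their p-values depend on the reference gene as well as on the difference. No depth or counting interval applies to arrays; the number of arrays limits the precision. The fits were also run on simulated data with independent noise and few shifted rows. The real tables differ in both, so that run says nothing about the calls here. Strand came from the W or C of the systematic name, matched by symbol for 10 of 10 members to a RefSeq table of assembly R64, from which no coordinate was used.

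The members and the gene lists were chosen with earlier results of these data known. Genes named are the members, PYK2, GPM2 and GPM3, the 2 highest and 2 lowest coding regions of the other pathway genes (HXK1, HXK2, GLK1, PGI1, PFK1, PFK2, PDC1, PDC5, PDC6, ADH1 to ADH5, GPM2, GPM3, PYK2, FBP1, PCK1, RAP1, GCR1, GCR2, TYE7), partners in divergent promoters and the 3 genes nearest in ratio to TDH3, ENO2 and TDH1; HIP1 was named after its value was seen. Alternatives were normexp, loess, mode centring, no filter, no saturated probes, 60-nt probes, the deposited table, medians over probes, inner coding probes and each array alone; 3 more were added after seeing the data: length adjustment, 1 coding probe allowed, and the 3 nearest promoter probes.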

Additional observations from a re-analysis of the deposited data

How the results depend on the processing

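No paired analysis was possible because there is a single group of 2 arrays. Each array alone gave all 102 values (51 tested values, each array left out in turn) in the same direction, with no count of calls. TDH3 minus TDH1 in coding regions ranged from 0.99 to 1.01. With 2 arrays, leaving 1 out only returns the value of the other, so this repeats the agreement between the arrays and is no further test. The 73 results compared are the 51 tested values and, for the rest, counts of calls. Without the probe filter every tested value kept its direction and its side of the threshold. With the deposited table all did except CDC19 coding, which was called higher at 0.039. The counts moved somewhat. Members higher in coding regions were 7 of 8 in the main fit, 8 of 9 without the filter and 8 of 8 with the deposited table. Signal was not limiting, as over 99.7% of spots were well above background.

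The normexp correction left the Cy5 signals of the second array with a 95th percentile 1.12 times the 5th, against 5.81 before, and the correlation between arrays fell to 0.260; with loess on top of it the correlation was 0.963. With normexp, limma called 8 coding regions higher and 2 lower, 0 and 0 promoters, 9 coding probes higher and 60 lower, and 157 promoter probes higher and 6 lower; among members and other pathway genes it called 0 in each count except 1 promoter probe of a member. With loess every count was 0, at all levels. At an unadjusted p under 0.05, normexp gave 3 of 8 member coding regions and 6 of 10 member promoters higher, and loess 6 and 0, with none lower; over all promoters these counts were 704 higher and 31 lower with normexp and 86 and 0 with loess, and over all coding regions 207 and 520 with normexp and 431 and 154 with loess.

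With normexp the promoter difference of GPM1 minus GPM3 was still called, at 0.72. Isozyme differences not called with normexp were 0.24 (TDH3 minus TDH1), 0.20 (TDH2 minus TDH1), 0.046 (TDH3 minus TDH2) and 0.031 (CDC19 minus PYK2, sign turned) in coding regions, and 0.086, -0.070, 0.16, 0.37 and 0.28 in promoters for the same pairs and GPM1 minus GPM2. With loess they were 0.063, 0.071, -0.0074 (turned) and 0.0043 (turned) in coding regions. In promoters they were 0.10, 0.0090 (turned), 0.092, 0.31, 0.10, 0.27 for GPM1 minus GPM3 and -0.086 for ENO2 minus ENO1 (turned). Signs also turned, uncalled, with normexp in the coding ratios of CDC19 (-0.012), GPM3 (-0.030) and PYK2 (-0.043), the promoter ratios of GCR2 (0.057) and PYK2 (0.096) and promoter minus coding of FBA1 (0.017), and with loess in promoter minus coding of ENO2 (-0.022) and TDH1 (-0.026). For all these the cause beyond the flattened channel was not tested.

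With 60-nt probes only, fewer probes and genes were tested: 988 coding regions and 4858 coding probes were higher. Members gave 1 coding region higher of 1 measured, 4 coding probes higher and 1 lower of 5, 20 promoter probes higher of 26, 1 promoter lower (PGK1, -0.075) and 1 promoter minus coding higher with 0 lower; 8 other pathway coding regions were higher. CDC19 minus PYK2 was called in coding regions (-0.071) and ENO2 minus ENO1 in promoters (0.13), and the TDH coding pairs had no value. Centring on the mode called 1015 coding regions higher and, among other pathway genes, 4 coding regions and 2 promoters lower. Length adjustment called 1 member coding region (CDC19, -0.080) and 5 member coding probes lower, 2 other pathway promoters lower, and CDC19 minus PYK2 lower (-0.057); PYK2 coding turned to -0.023. With medians over probes CDC19 minus PYK2 turned to 0.044, PYK2 coding to -0.0022, ENO2 minus ENO1 promoters were called at 0.27, and 5 other pathway coding regions were lower. Without the first and last coding probe, CDC19 minus PYK2 was called at -0.059, GPM3 coding turned to -0.0051, 1 member was lower in promoter minus coding, and TDH2 and TDH3 had no value. ENO2 minus ENO1 promoters turned to -0.068 without saturated probes, called, and to -0.054 with the 3 nearest probes, uncalled.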
